A study of Rattus norvegicus with 9 samples.

Results

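Neuropeptide processing enzymes and granins were followed in the hypothalamus of female rats through puberty. The set was given by gene name and holds 10 genes: the convertases Pcsk1 and Pcsk2, the convertase inhibitor Pcsk1n, the Pcsk2 chaperone Scg5, the trimming and amidating enzymes Cpe and Pam, and the granins Chga, Chgb, Scg2 and Scg3. A member was taken wherever the array annotation gave a probe set exactly 1 gene symbol, that of the member. This found 11 probe sets for 9 of the 10 genes, 3 of them for Pam and 1 for each other gene, and Pcsk1 is not analysed here. The arrays hold 31042 probe sets beside the controls, of which 20826 carry 1 symbol. Each stage held 3 animals. Juveniles, the controls in the labels, were 26 days old, early pubertal rats 29 days and late pubertal rats 31 days. The labels describe all 9 as normally developing females and assign each array to the hypothalamus of a single rat, with no treatment, and the strain is not given in the sources used here. Stages are those of the labels, and age and stage cannot be told apart.

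Neuropeptides are made as long precursors and cut inside secretory granules. Prohormone convertases cleave the precursor at pairs of basic residues, carboxypeptidase E (Cpe) removes the basic residues left at the cut end, and peptidylglycine alpha-amidating monooxygenase (Pam) gives many peptides, gonadotropin-releasing hormone among them, the amide they need for activity. Scg5, also called 7B2, escorts the Pcsk2 proenzyme through the secretory pathway, and Pcsk1n, the proSAAS precursor, inhibits Pcsk1. Granins are acidic proteins that aggregate with calcium, help cargo enter the dense core granule, and are themselves cut into peptides. Both kinds of protein are shared by many hypothalamic neurons, so their transcripts stand for the peptide-secreting tissue as a whole.

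The sequences below are the 250 bases before an annotated start of each of 3 members. They are read 5′ to 3′ on the gene's own strand from RefSeq, build GRCr8. Chgb and Pcsk1n are shown because they had the smallest unadjusted p-values between early pubertal and juvenile animals, and Scg2 because its window was the only 1 of the members' to hold a complete cAMP response element. Capitals mark GC boxes (GGGCGG, or CCGCCC on the other strand) and the cAMP response element (TGACGTCA). The Chgb window is chr3:140496462-140496711 on the plus strand. That of Pcsk1n is chrX:17255406-17255655 on the minus strand and that of Scg2 is chr9:88256867-88257116 on the minus strand. The annotated Scg2 gene spans chr9:88251531-88257208, so its window lies inside the gene and not before its outermost end.
Chgb: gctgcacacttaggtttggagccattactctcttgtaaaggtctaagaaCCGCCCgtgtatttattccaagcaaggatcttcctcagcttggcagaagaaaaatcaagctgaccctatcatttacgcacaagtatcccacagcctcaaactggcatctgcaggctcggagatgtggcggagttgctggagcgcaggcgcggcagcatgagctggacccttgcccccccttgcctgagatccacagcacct
Pcsk1n: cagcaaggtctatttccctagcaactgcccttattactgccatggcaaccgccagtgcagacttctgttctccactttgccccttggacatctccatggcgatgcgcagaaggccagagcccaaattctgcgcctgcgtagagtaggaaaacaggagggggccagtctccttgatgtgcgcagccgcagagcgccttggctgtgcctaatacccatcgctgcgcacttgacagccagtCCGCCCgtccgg
Scg2: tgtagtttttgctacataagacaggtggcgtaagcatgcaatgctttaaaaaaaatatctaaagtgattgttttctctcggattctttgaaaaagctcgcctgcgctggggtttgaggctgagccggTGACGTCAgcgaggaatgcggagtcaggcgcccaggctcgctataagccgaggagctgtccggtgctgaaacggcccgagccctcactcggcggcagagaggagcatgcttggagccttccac

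Of the 10 members 8 had such a window, and Pcsk1 and Chga had none in the table used. The window of Pam, like that of Scg2, lay inside the annotated gene, and that of Scg5 overlapped its gene. TGACGTCA, which reads the same on both strands, began at position −123 from the start used for Scg2. It was in 1.59% of the 33469 windows of that length. Its core TGACG, searched on both strands and contained in the complete element on each strand, was in the windows of 6 members (Cpe, Pam, Pcsk2, Scg2, Scg3 and Scg5) and in 18.2% of all. A GC box was in those of 5 members (Chgb, Cpe, Pcsk1n, Pcsk2 and Scg5) and in 30.5% of all. Pcsk2 held 7 of them, some overlapping, in a window of 79.6% G and C, against 51.2% in the median window. All 8 member windows were above that median, at 53.2% to 79.6%, so the shares of all windows are not matched to them in composition. TATAAA was in no member's window and in 12.9% of all. These are matches of letters within the window and describe no binding.

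Median signal ran from 79.8 to 122 over the 9 arrays, and it averaged 90.9 ± 10.7 in early pubertal against 107 ± 5.37 in juvenile animals (SD, n = 3 each; exact two-sided permutation p = 0.1, the smallest that 3 against 3 can give). Values were therefore compared as log2(signal + 16) after quantile normalization, and each level below is on that scale unless it is called a deposited signal. The 3′ to 5′ ratio of the beta-actin control ran from 2.14 to 3.24, with an exact permutation p of 0.5 to 0.9 in the 3 comparisons. Of 18 genes that mark the hypothalamus 15 had a probe set and 13 passed the signal filter, with Pmch (melanin-concentrating hormone) at 12.47 to 12.89 and Avp (vasopressin) at 11.16 to 12.12, while the transcription factors Sim1 and Otp lay below the filter. The filter kept probe sets whose mean level was above the 40th percentile, a log2 level of 6.30, and left 18625 for testing. Of the 11 member probe sets 9 passed it, 1 for each of the 9 genes, and the other 2 were both of Pam. The tested probe sets were 1387155_at for Pcsk2, 1367835_at for Pcsk1n, 1367992_at for Scg5, 1386921_at for Cpe, 1367687_a_at for Pam, 1387235_at for Chga, 1368034_at for Chgb, 1368044_at for Scg2 and 1368656_at for Scg3.

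None of the 9 members passed the test in any comparison. Between early pubertal and juvenile animals limma with Benjamini-Hochberg adjustment over all tested probe sets called 0 of 9 members, beside 0% of all tested probe sets, and 2 of 9 (Chgb and Pcsk1n) had a limma p under 0.05 before adjustment, beside 4.46%. Between late pubertal and juvenile animals it called 0 of 9, beside 0%, with 1 of 9 (Chgb) at an unadjusted p under 0.05, beside 4.14%. Late against early pubertal animals gave 0 of 9 beside 0%, and 0 of 9 at an unadjusted p under 0.05 beside 5.21%. The moderated F test over the 3 stages called 0 of 9 beside 0%, and 1 (Chgb) had an unadjusted p under 0.05, beside 4.22%. Adjusted p-values of the members ran from 0.994 to 0.996 for early pubertal against juvenile animals, were all 0.9998 for late pubertal against juvenile, and ran from 0.914 to 0.992 for late against early pubertal. With arrays as deposited or centred on their medians, 0 of 9 members had an unadjusted limma p under 0.05 in either comparison with juvenile animals. Of all 18625 tested probe sets, 3431 as deposited and 808 with median centring had 1 in early pubertal animals. The counts were 444 and 747 in late pubertal animals. Both differences from juvenile animals use the same 3 juvenile arrays.

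**Figure D1:**
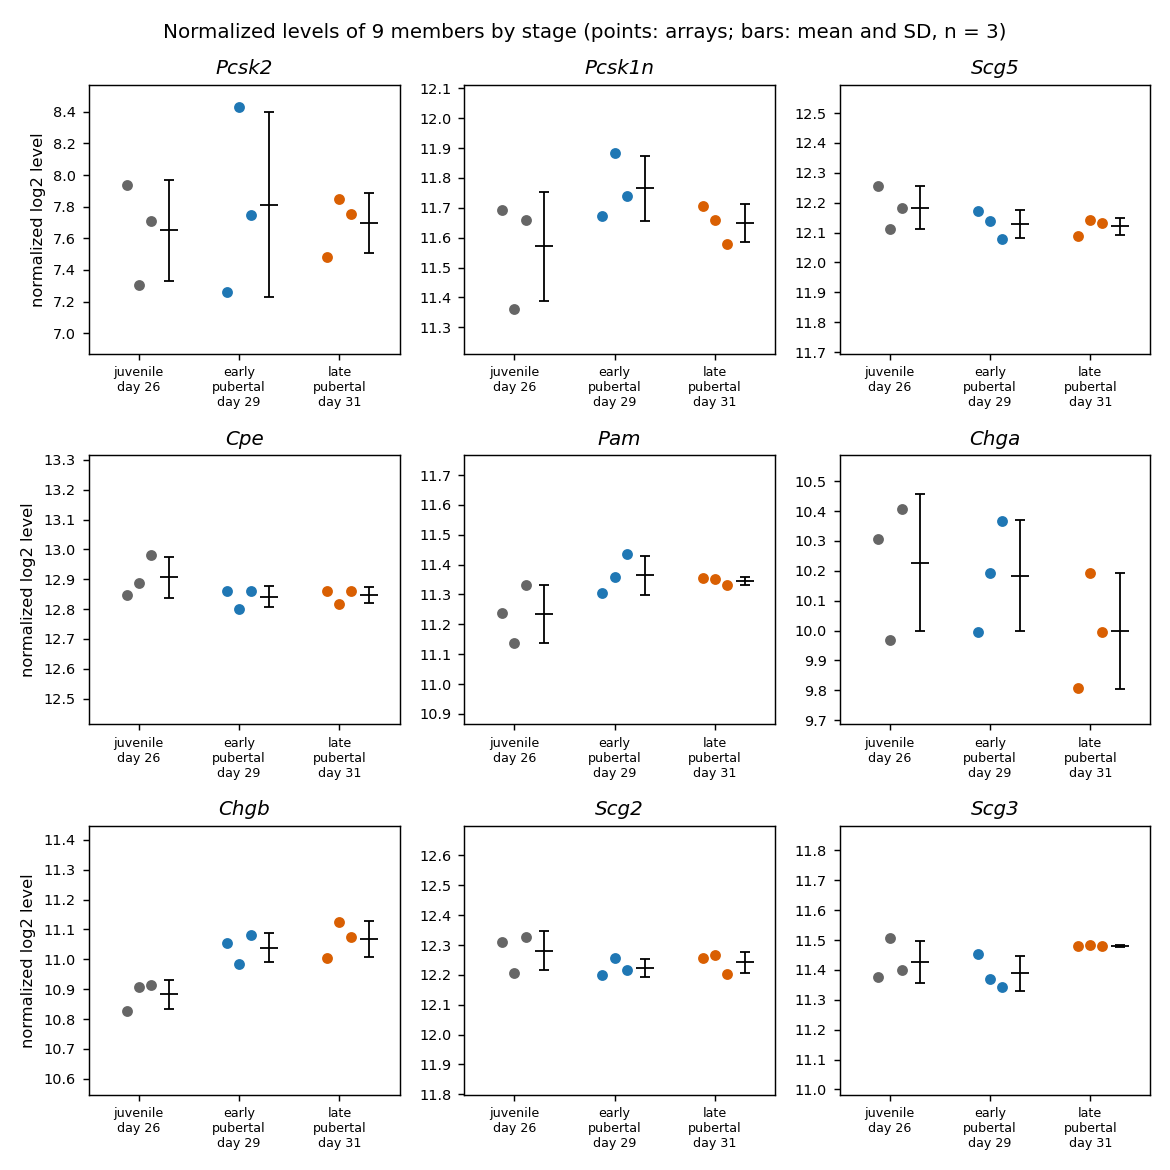
Normalized log2 level of the tested probe set of each of 9 members in each array (points) by stage, with the mean and SD (n = 3) at the right of each group; the axis for Pcsk2 spans a wider range than the others. Chgb lies between 10.83 and 10.92 in juvenile arrays and at 10.98 or above in all pubertal arrays, and Pcsk2 has the widest spread, up to 8.43 in early pubertal replicate 8.

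Chgb, chromogranin B, was the 1 member whose early pubertal arrays lay clear of the juvenile arrays. Its levels were 10.83, 10.91 and 10.92 in the juvenile arrays (replicates 1, 2 and 3). The early pubertal arrays (replicates 7, 8 and 10) had 11.05, 10.98 and 11.08, and the late pubertal arrays (replicates 12, 14 and 20) had 11.004, 11.12 and 11.08. Arrays are given in this order throughout. Every pubertal array was above every juvenile array, and early and late pubertal arrays overlapped. The early pubertal mean was 11.04 ± 0.049 against 10.88 ± 0.049 in juvenile animals (SD, n = 3 each), a log2 difference of 0.16 ± 0.061 (SE; 1.11-fold, 95% interval 1.02 to 1.22, unadjusted; limma adjusted p = 0.994). The late pubertal mean was 11.07 ± 0.061, a difference of 0.19 ± 0.061 from juvenile animals (1.14-fold, 95% interval 1.04 to 1.25; limma adjusted p = 0.9998). Over the alternatives tried, its adjusted p ran from 0.675 to 0.9998 for the early and from 0.322 to 1.0 for the late pubertal difference, and without any single array the differences stayed between 0.13 and 0.18 and between 0.15 and 0.22. No overlap in the higher direction was seen for 1 of 9 members against 3.86% of tested probe sets in early pubertal animals, and for 1 of 9 against 5.9% in late pubertal animals. No overlap in the lower direction was seen for 0 of 9, against 4.43% and 5.52%.

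The deposited signals of Chgb did not separate the stages. They were 2128, 1980.1 and 1871 in juvenile, 2048, 1755 and 1869.6 in early pubertal and 1990.1, 2249.8 and 2440.4 in late pubertal arrays, and all 3 groups overlapped. On that level the early pubertal difference was −0.076 ± 0.13, where the median of all tested probe sets was −0.24, so that Chgb stood 0.16 above that median. The late pubertal difference was 0.16 ± 0.13 at the deposited level, beside a median of −0.016. With each array centred on its median both differences were 0.14 ± 0.088, and with a variance prior without intensity trend no member had an unadjusted p under 0.05.

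Chga, chromogranin A, had overlapping levels in all 3 stages: 10.31, 9.97 and 10.41 in juvenile, 9.99, 10.19 and 10.37 in early pubertal and 9.81, 10.19 and 9.996 in late pubertal arrays. Juvenile replicate 3 was the highest and late pubertal replicate 12 the lowest. Against juvenile animals its difference was −0.043 ± 0.13 early in puberty and −0.23 ± 0.13 late in puberty (SE; 95% intervals of the fold 0.792 to 1.19 and 0.696 to 1.05). The early pubertal value turned to 0.048 without juvenile replicate 3 and to 0.052 without early pubertal replicate 7, and it was −0.0033 without juvenile replicate 1, −0.17 without juvenile replicate 2 and −0.13 without early pubertal replicate 10. The late pubertal value stayed negative without any single array, between −0.36 without juvenile replicate 2 and −0.13 without late pubertal replicate 12, and it was −0.14 without juvenile replicate 3.

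Scg2, secretogranin II, the precursor of the peptide secretoneurin, held a narrow range over all 9 arrays, 12.20 to 12.33. Its levels were 12.31, 12.21 and 12.33 in juvenile, 12.20, 12.26 and 12.22 in early pubertal and 12.26, 12.27 and 12.20 in late pubertal arrays, with overlap throughout. The differences from juvenile animals were −0.057 ± 0.047 in early and −0.039 ± 0.047 in late pubertal animals, with 95% intervals of the fold from 0.895 to 1.03 and from 0.906 to 1.05. Without juvenile replicate 2 they were −0.095 and −0.078 and without juvenile replicate 3 −0.034 and −0.016. The late value was also −0.024 without juvenile replicate 1 and −0.019 without late pubertal replicate 20. As deposited, its signals were 5599, 4790.0 and 4890 in juvenile, 4537, 4467 and 4326 in early pubertal and 4766, 5097 and 5263 in late pubertal arrays. On that level the early pubertal arrays were all below the juvenile ones, a difference of −0.19 beside the median of −0.24 over all tested probe sets, and with median centring the value was 0.019.

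Scg3, secretogranin III, which binds Chga and cholesterol-rich granule membrane, had levels of 11.38, 11.51 and 11.40 in juvenile and 11.45, 11.37 and 11.34 in early pubertal arrays, and 11.48 in each late pubertal array. Late pubertal arrays were all above the early pubertal ones and lay inside the juvenile range. As deposited, signals were 3097, 2920 and 2613 in juvenile, 2707, 2348 and 2271 in early pubertal and 2786, 2897 and 3200 in late pubertal arrays. The late minus early pubertal difference was 0.28 ± 0.12 at that level, beside a median of 0.22 over all tested probe sets. With median centring it was 0.054 ± 0.075. The difference from juvenile animals was −0.037 ± 0.056 early and 0.054 ± 0.056 late in puberty (95% intervals of the fold 0.895 to 1.06 and 0.953 to 1.13). The early pubertal value was 0.0021 without juvenile replicate 2, −0.015 without early pubertal replicate 10, −0.064 without juvenile replicate 1 and −0.071 without early pubertal replicate 7. The late pubertal value was 0.029 without juvenile replicate 1 and 0.094 without juvenile replicate 2.

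Among the convertase genes, Pcsk2, which makes the final cuts in many neuropeptide precursors, was measured with the largest error of the members. Its levels were 7.94, 7.31 and 7.71 in juvenile, 7.26, 8.43 and 7.75 in early pubertal and 7.48, 7.85 and 7.75 in late pubertal arrays. Early pubertal replicate 8 was the highest and early pubertal replicate 7 the lowest of all 9, so that 1 stage held the whole range. Its difference from juvenile animals was 0.16 ± 0.26 in early and 0.043 ± 0.26 in late pubertal animals, with 95% intervals of the fold from 0.759 to 1.65 and from 0.698 to 1.52. Without early pubertal replicate 8 the early value was −0.15, without replicate 7 it was 0.44, and without juvenile replicate 2 it was −0.0098. The late value was −0.13 without juvenile replicate 2, 0.18 without juvenile replicate 1 and −0.034 without late pubertal replicate 14. Among the 13 hypothalamus markers tested, early pubertal replicate 8 held the lowest level of all arrays for 2 (Avp at 11.16 and Oxt, oxytocin, at 10.39) and the highest for 4 (Hcrt, Ghrh, Nkx2-1 and, tied, Pmch). It was the highest array for 5 of the 20 pan-neuronal markers and the lowest for 0. Juvenile replicate 1, with Pcsk2 at 7.94, was the highest array for 6 of the 20 and the lowest for 1. The part of these markers in the Pcsk2 value was not tested. In bulk tissue fewer cells of a type and less RNA per cell cannot be told apart.

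Pcsk1n had levels of 11.69, 11.36 and 11.66 in juvenile, 11.67, 11.88 and 11.74 in early pubertal and 11.71, 11.66 and 11.58 in late pubertal arrays. Juvenile replicate 2 was the lowest of all arrays, and juvenile replicate 1 lay above early pubertal replicate 7, so the stages overlapped. The early pubertal mean was 11.77 ± 0.11 against 11.57 ± 0.18 in juvenile animals (SD, n = 3 each), a difference of 0.19 ± 0.087 (SE; limma adjusted p = 0.994, and 0.673 to 0.9998 over the alternatives). It was 0.090 without juvenile replicate 2 and 0.26 without juvenile replicate 1. At the deposited level it was 0.021 ± 0.12, beside a median of −0.24 over all tested probe sets, and with median centring it was 0.23 ± 0.11. The late pubertal difference was 0.077 ± 0.087, and it turned to −0.028 without juvenile replicate 2. Of the 6 pituitary markers tested, that array was the highest of all for 2 (Cga, at 11.17, and Tshb, at 9.18 against 6.04 to 7.99 in the others), and its Lhb (7.17) and Fshb (6.16) were the lowest of the juvenile arrays. Of the 20 pan-neuronal markers it was the lowest array for 5 (Snap25, Syp, Tubb3, Uchl1 and Thy1) and the highest for 1. Early pubertal replicate 10, with Pcsk1n at 11.74, was the lowest array for 8 of the 20 and the highest for 0. The part of these markers in the Pcsk1n value was not tested.

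Scg5 was close to level across the stages. It stood at 12.26, 12.11 and 12.18 in juvenile, 12.17, 12.14 and 12.08 in early pubertal and 12.09, 12.14 and 12.13 in late pubertal arrays, and all groups overlapped. Its differences from juvenile animals were −0.055 ± 0.050 and −0.063 ± 0.050 in early and late pubertal animals, with 95% intervals of the fold from 0.892 to 1.04 and from 0.887 to 1.03. Without juvenile replicate 1 they were −0.019 and −0.028, without juvenile replicate 2 they were −0.088 and −0.096, and without early pubertal replicate 10 the early value was −0.028. The early value was 0.028 with each array centred on its median.

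Cpe had the smallest error of the members after quantile normalization, an SE of 0.043, and at the deposited level, 0.083. With median centring its SE was 0.085, above those of Scg3 (0.075), Scg5 (0.078) and Scg2 (0.083). Levels were 12.85, 12.89 and 12.98 in juvenile, 12.86, 12.80 and 12.86 in early pubertal and 12.86, 12.82 and 12.86 in late pubertal arrays. Juvenile replicate 3 was the highest, and juvenile replicate 1 lay within the range of both pubertal stages. The differences were −0.065 in early and −0.060 in late pubertal animals, so the 95% intervals of the fold ran from 0.896 to 1.02 and from 0.899 to 1.02. Without juvenile replicate 3 the differences were −0.027 and −0.022, and without juvenile replicate 1 they were −0.096 and −0.091. In deposited signal Cpe was 8057, 7565 and 7476 in juvenile, 6936, 7107 and 6890.1 in early pubertal and 7278, 7954 and 7856 in late pubertal arrays, with the early pubertal arrays below all others. The early pubertal difference was −0.14 at that level, 0.099 above the median of all tested probe sets, and 0.071 with median centring, so its direction depended on the scaling.

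Pam was represented by 3 probe sets. The tested 1 had levels of 11.24, 11.14 and 11.33 in juvenile, 11.30, 11.36 and 11.43 in early pubertal and 11.36, 11.35 and 11.33 in late pubertal arrays. Juvenile replicates 1 and 2 were below every pubertal array, and juvenile replicate 3 was not. Its differences were 0.13 ± 0.063 in early and 0.11 ± 0.063 in late pubertal animals, with 95% intervals of the fold from 0.995 to 1.20 and from 0.982 to 1.19. Without juvenile replicate 2 they were 0.081 and 0.063. At the deposited level the early difference was −0.068, 0.17 above the median of all tested probe sets. The other 2 probe sets were dim, with deposited signals of 28.7 to 91.0 and of 1.49 to 24.5, were not tested, and support no direction.

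**Figure D2:**
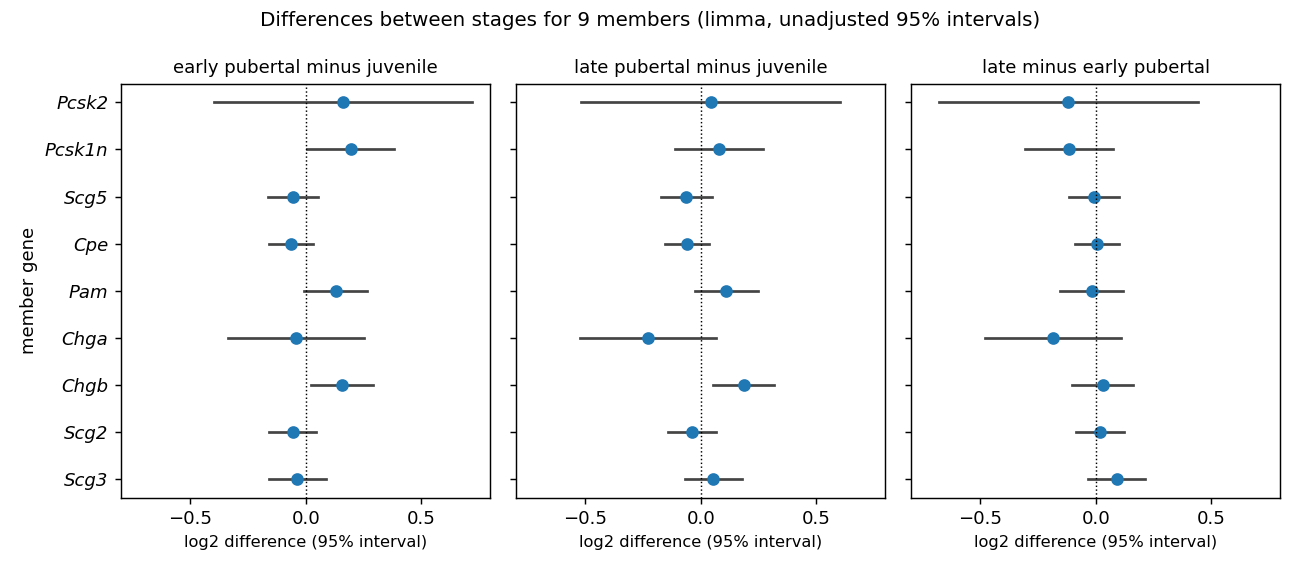
Log2 differences of 9 members (points) with unadjusted 95% intervals from limma (lines) for early pubertal minus juvenile, late pubertal minus juvenile and late minus early pubertal animals. The intervals of Chgb lie above 0 in both comparisons with juvenile animals and that of Pcsk1n in the first, while the interval of Pcsk2 is the widest throughout.

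Late and early pubertal animals were then set against each other, which asks what differs between the stages of puberty themselves. The largest differences were −0.19 ± 0.13 for Chga, −0.12 ± 0.26 for Pcsk2 and −0.12 ± 0.087 for Pcsk1n on the lower side, and 0.091 ± 0.056 for Scg3 on the higher. Scg3 was the 1 of 9 members with no overlap in the higher direction, against 5.97% of tested probe sets, and 0 of 9 had none in the lower, against 5.37%. Chgb differed by 0.029, Scg2 by 0.018, Cpe by 0.0049, Scg5 by −0.0082 and Pam by −0.019, each with an SE of 0.043 to 0.063. The value of Pcsk2 turned to 0.19 without early pubertal replicate 8 and ran down to −0.39 without early pubertal replicate 7. Leaving out single arrays moved Chga between −0.28 (without late pubertal replicate 14) and −0.090 (without late pubertal replicate 12), and Pcsk1n to −0.057 without early pubertal replicate 8. It moved Chgb between 0.000399 (without late pubertal replicate 14) and 0.062 (without late pubertal replicate 12), and Scg2 between 0.0050 (without early pubertal replicate 7) and 0.037 (without late pubertal replicate 20). The near-zero values of Scg5, Cpe and Pam also changed sign without single arrays: Scg5 at 0.013 without early pubertal replicate 7 and 0.0075 without late pubertal replicate 12, Pam at 0.016 without early pubertal replicate 10, and Cpe at −0.016, −0.0030 and −0.0025 without early pubertal replicate 8 and late pubertal replicates 12 and 20.

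The members' median SE was 0.061, against 0.15 over all 18625 tested probe sets. Neither this comparison nor the next is matched for level. Apart from Pcsk2 (mean 7.72, SE 0.26) the tested members averaged from 10.14 (Chga) to 12.86 (Cpe), while the filter lay at 6.30. The median absolute difference was 0.065 for the members and 0.098 for all in early pubertal against juvenile animals, 0.063 and 0.095 in late pubertal against juvenile, and 0.029 and 0.10 in late against early pubertal. After quantile normalization 4 of 9 members were higher and 5 lower in early pubertal than in juvenile animals (median −0.037, and −0.0014 over all tested probe sets), and 5 were higher and 4 lower in late pubertal animals (median 0.043, and −0.0015 over all). The early pubertal tally depended on the scaling. It was 7 higher and 2 lower with median centring, and 1 higher and 8 lower at the deposited level. Median centring shifts each array by a constant, so a member's distance from the median of all tested probe sets is the same under both. They are therefore not separate results in this respect. Under both of these 8 of 9 stood above that median, against 4 of 9 after quantile normalization. The late pubertal tally was 5 higher and 4 lower under all 3 scalings, with 7 of 9 above that median under median centring and at the deposited level and 5 of 9 after quantile normalization. Between late and early pubertal animals 4 of 9 were higher after quantile normalization, 2 with median centring and 9 at the deposited level. No array held the members uniformly high or low. The number of members above their own 9-array mean was 5, 2 and 5 for the juvenile arrays, 4, 5 and 5 for the early pubertal and 5, 6 and 4 for the late pubertal arrays. Juvenile replicate 2 was the lowest by this count, while Scg3 stood at its highest there, at 11.51.

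**Figure D3:**
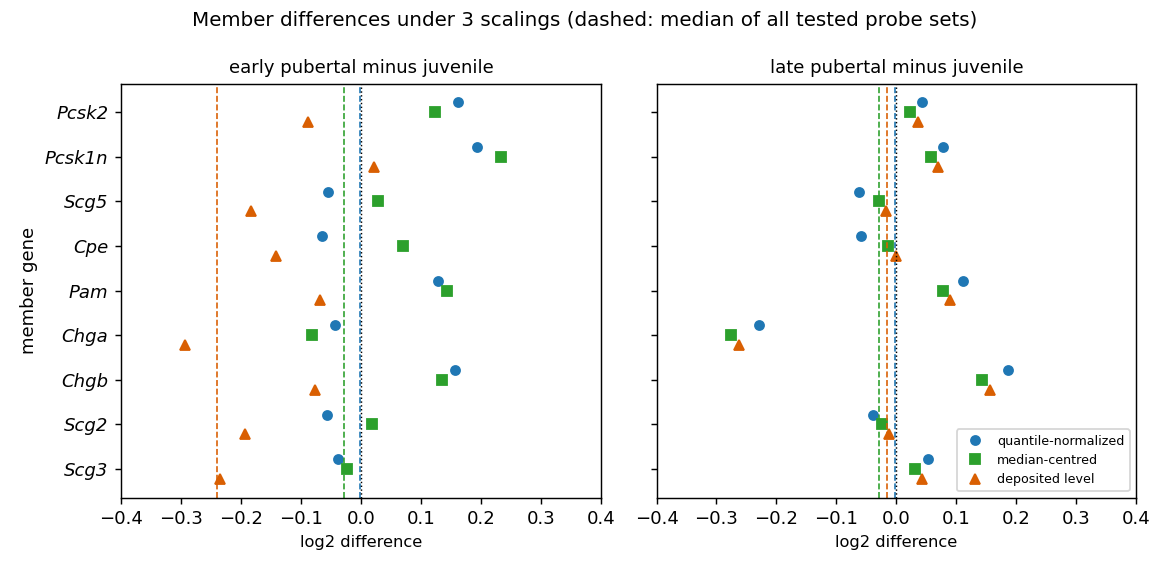
Log2 differences of 9 members from juvenile animals in early pubertal (left) and late pubertal (right) animals under 3 scalings of the arrays, with the median of all tested probe sets under each scaling as a dashed line. In early pubertal animals the deposited level moves all members down together with that median, to −0.24, while Chgb stays 0.16 above it under each scaling. For the deposited level and median centring this distance is the same by construction.

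Genes that act with the members gave no call either. Of 19 symbols listed for other processing enzymes, among them Ctsl and Ctsl1 for the same gene, 16 were tested. In early pubertal against juvenile animals 10 were higher and 6 lower, with a median of 0.047 and 0 past the test. Pcsk6, a convertase of the constitutive pathway, had a difference of 0.24 ± 0.12 with all early pubertal arrays above the juvenile ones. Qpct, glutaminyl cyclase, which caps peptides such as GnRH and thyrotropin-releasing hormone with pyroglutamate, had 1 of −0.14 ± 0.077 with all early pubertal arrays (9.93, 9.85 and 9.93) below the juvenile ones (9.98, 10.14 and 10.01). In late pubertal animals 11 were higher and 5 lower, with a median of 0.018 and 0 past the test. Cpd, a carboxypeptidase of the trans-Golgi that trims like Cpe, stood at 9.81, 9.80 and 9.96 in late pubertal arrays against 9.49, 9.75 and 9.54 in juvenile ones, a difference of 0.27 ± 0.10 (limma adjusted p = 0.9998). Furin, the ubiquitous convertase, had a difference of −0.28 ± 0.16, with overlap. Late against early pubertal animals had 6 higher and 10 lower, with Cpd at 0.21 ± 0.10 and 0 past the test.

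Proteins of the dense core granule were tested for 22 of 25 genes, with 10 higher and 12 lower in early pubertal animals (median −0.018) and 7 higher and 15 lower in late pubertal animals (median −0.050), both against juvenile animals and both with 0 past the test. Over all 10600 named genes tested, 51.0% were higher in early and 50.8% in late pubertal animals. Nucb2, the nesfatin precursor, had levels of 9.06, 9.03 and 9.19 in early pubertal against 8.80, 8.91 and 8.96 in juvenile arrays, a difference of 0.21 ± 0.093 without overlap. Syt4, a synaptotagmin of granules, had differences of −0.15 ± 0.065 in early and −0.13 ± 0.065 in late pubertal animals, with −0.030 and −0.20 on its other tested probe set. Rab3d, a small GTPase of granule release, differed by 0.41 ± 0.16 in late pubertal animals. Between late and early pubertal animals 8 were higher and 14 lower, with 0 past the test, and Nucb1 differed by −0.22 ± 0.11.

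Enzymes that degrade released peptides were tested for 12 of 13 genes, with 6 higher and 6 lower in early pubertal and 8 higher and 4 lower in late pubertal than in juvenile animals, and 0 past the test in both. Prep, prolyl oligopeptidase, which cuts short peptides after proline, had levels of 8.09, 7.73 and 7.89 in juvenile, 7.72, 7.68 and 7.56 in early pubertal and 7.66, 7.36 and 7.56 in late pubertal arrays. All pubertal arrays lay below the juvenile ones, with differences of −0.25 ± 0.14 and −0.38 ± 0.14 (limma adjusted p = 0.994 early and adjusted p = 0.9998 late). Anpep, aminopeptidase N, had a difference of 0.43 ± 0.18 in early pubertal animals without overlap, and Ide, the insulin-degrading enzyme, 1 of 0.12 ± 0.080 in late pubertal animals, with 0.33 and −0.090 on its other tested probe sets. Between late and early pubertal animals 7 were higher and 5 lower, with Npepps at −0.28 ± 0.15 and 0 past the test.

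Of 38 peptide precursors, the substrates of these enzymes, 32 had a probe set and 25 passed the filter. In early pubertal animals 15 were higher and 10 lower than in juvenile animals (median 0.11) and in late pubertal animals 13 were higher and 12 lower (median 0.0018), with 0 past the test in each. Nts, neurotensin, had levels of 8.55, 8.22 and 8.16 in juvenile, 8.72, 8.63 and 8.60 in early pubertal and 8.25, 8.39 and 8.30 in late pubertal arrays, with differences of 0.34 ± 0.12 for early pubertal against juvenile and −0.33 ± 0.12 for late against early pubertal animals. Npvf, whose RFamide peptides are amidated by Pam and inhibit gonadotropin release, had differences of 0.59 ± 0.23 in early and 0.60 ± 0.23 in late pubertal animals, and Pdyn, prodynorphin, 1 of 0.29 ± 0.13 in late pubertal animals, with 0.41 on its other tested probe set. Between late and early pubertal animals 11 were higher and 14 lower, with 0 past the test.

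Markers of other cells were measured beside these values. Pan-neuronal markers passed the filter for 20 of 20 genes, and 15 of 20 were lower in early pubertal (median −0.045) and 15 of 20 in late pubertal animals (median −0.029) than in juvenile ones, with summed normalized signals of 46863 to 51840 and 47700 to 48883 against 47626 to 50759. Of 12 pituitary markers 11 had a probe set and 6 passed the filter, with 5 higher and 1 lower in early and 2 higher and 4 lower in late pubertal animals, and summed signals of 2130 to 2764 and 1845 to 2306 against 1424 to 3176. Prl, Gh1, Pomc, Pou1f1 and Pitx1 lay below the filter in the mean of all arrays. Of those that passed, Cga stood at 10.02 to 11.17 and Tshb at 6.04 to 9.18 over the arrays. Genes marking the leptomeninges, which cover the brain, and their fibroblasts were higher for 12 of 12 genes in both pubertal stages, with medians of 0.19 and 0.31 and summed signals of 9443 to 13717 and 10903 to 12495 against 8960 to 11287 in juvenile arrays. Of 11 astrocyte markers tested, 9 were higher in each pubertal stage, with summed signals of 38239 to 39741 early and 37674 to 40819 late in puberty against 37498 to 37865 in juvenile arrays. Microglia markers were higher for 6 of 10 early and 2 of 10 late in puberty (medians 0.044 and −0.17). The counts were 7 and 5 of 10 for oligodendrocyte, 6 and 4 of 9 for endothelial and 3 and 3 of 4 for choroid plexus markers. The red blood cell markers Hbb (13.16) and Alas2 (9.49) were highest in late pubertal replicate 14, where Chgb was also highest (11.12). Both were lowest in late pubertal replicate 20, with Chgb at 11.08. No marker passed the test, and the part of any of these cells in the Chgb difference was not tested.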

How the data were processed

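Per the labels, total RNA of 9 hypothalami was converted to biotin-labelled cRNA from cDNA primed with oligo-dT and hybridised to Affymetrix rat arrays. The authors deposited 1 linear signal intensity for each probe set, and the submitters' processing notes name MAS5. No version, scaling target or detection call was at hand. Trimmed means, leaving out the highest and lowest signals, differed by up to 1.42 times between arrays, so log2(signal + 16) was quantile-normalized. Such folds understate the change of dim probe sets. Differences were fitted across all 18625 tested probe sets with limma 3.58.1 in R 4.3.3 (1 mean per stage, 9 arrays, intensity trend in the prior, two-sided, Benjamini-Hochberg adjustment within each comparison, threshold 0.05, 6 residual and 5.80 prior degrees of freedom). The fit was tested on simulated data with planted differences larger than any of the members', so that test does not address differences of their size. Exact permutation tests used scipy 1.17.1. The labels give no batch or date. The number of arrays limits the precision.

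Members, gene lists and alternatives were chosen with earlier results of these data known. Where a gene had several tested probe sets, the brightest stood for it. Of each list of related genes, the text names up to 3 with the smallest p in a comparison, here 2 against juvenile animals and 1 between late and early pubertal animals. The alternatives were a smaller and a larger constant, arrays as deposited or centred on their medians, no filter or a stricter one, other variance priors, array weights, fits on 6 arrays, a threshold of 0.1 and leaving out each array. All 11 member probe sets matched a current RefSeq gene of the same symbol. Array correlations ran from 0.967 to 0.979 and no 2 arrays held identical values.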

Additional observations from a re-analysis of the deposited data

How the results depend on the processing

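No member passed the test under any of the 10 other settings or the 9 fits that left out an array, at an adjusted p of 0.259 or above. Of 27 member differences, 10 kept their sign throughout and 17 turned at least once. The counts of all probe sets called were 0 except at the deposited level, with array weights and without juvenile replicate 2. The deposited level gave 10 for early pubertal against juvenile, 1 for late pubertal against juvenile, 21 for late against early pubertal and 16 by the F test. Array weights gave 1 for late pubertal against juvenile. The fit without juvenile replicate 2 gave 1 for late pubertal against juvenile and 1 by the F test. The deposited level turned the early pubertal differences from juvenile animals of Pcsk2 (−0.089), Pam (−0.068), Chgb (−0.076), Pcsk6 (−0.013) and Nucb2 (−0.050), and between late and early pubertal animals those of Pcsk2 (0.12), Pcsk1n (0.049), Scg5 (0.17), Pam (0.16), Chga (0.030) and Nucb1 (0.000942); the medians of all tested probe sets were then −0.24 and 0.22. Median centring turned those of Scg5 (0.028), Cpe (0.071) and Scg2 (0.019) in early pubertal against juvenile animals and of Cpe (−0.084) and Scg2 (−0.043) between late and early pubertal animals. Array weights turned Pcsk2 in late pubertal against juvenile animals (−0.047), and Scg5 (0.0050) and Cpe (−0.00076) between late and early pubertal animals. Leaving out single arrays gave, for early pubertal against juvenile animals, −0.15 to 0.44 for Pcsk2, −0.17 to 0.052 for Chga and −0.071 to 0.0021 for Scg3. For late pubertal against juvenile animals it gave −0.13 to 0.18 for Pcsk2 and −0.028 to 0.14 for Pcsk1n. Between late and early pubertal animals it gave −0.39 to 0.19 for Pcsk2, −0.034 to 0.013 for Scg5, −0.016 to 0.016 for Cpe and −0.050 to 0.016 for Pam. The cause of these turns was not tested. Of 20 named differences of related genes, whose alternatives were added after the data were seen, 17 kept their sign and none was called. No paired analysis was possible because the stages share no replicate numbers. With 3 arrays a stage, the exact permutation tests cannot reach a p under 0.1.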
